A study of Mus musculus with 4 samples.

Results

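Eicosanoids are signalling lipids made from arachidonic acid, and the genes described here encode enzymes that make them and receptors that sense them. The set was taken by gene symbol and holds 10 of the 24537 genes in the files, namely the synthesis genes *Alox5*, *Alox5ap*, *Ltc4s* and *Hpgds*, the leukotriene receptor genes *Ltb4r1* and *Cysltr1*, and the prostaglandin receptor genes *Ptgir*, *Ptger2*, *Ptger4* and *Ptgdr2*. All 10 were found. They were followed by RNA-Seq in group 2 innate lymphoid cells (ILC2s), lymphocytes without antigen receptors that make type 2 cytokines, sorted from the bronchoalveolar lavage (BAL) fluid of mice with airway inflammation.

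The question was how ILC2s activated acutely and without T cell help differ from ILC2s activated over weeks by an allergen. IL-33-stimulated ILC2s came from mice given the alarmin IL-33 in 3 doses of 0.5 µg (2 libraries). Chronic HDM-stimulated ILC2s came from mice given house dust mite (HDM) extract in doses of 25 µg, 3 times weekly over 5 weeks (2 libraries). Mice were 8 to 16 weeks old, and in both groups ILC2s were sorted 1 day after the last dose as Lineage- Sca-1+ YFP+ cells from GATIR mice, in which an IRES-linked YFP reports *Gata3*. The labels give the genotype Gata3-YFP/YFP and CD25High cells for IL-33, and Gata3-YFP/WT and CD25Low cells for HDM, whereas the study's methods describe homozygous GATIR mice and no CD25 gate for this sort. Treatment, genotype and CD25 label therefore cannot be told apart in this comparison. How many mice each library held is not given in the sources used here, so the p-values reflect library-to-library spread alone, and that spread may be technical.

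As background, arachidonic acid is released from membranes by phospholipase A2 and is then used by competing routes. In the leukotriene route, 5-lipoxygenase (*Alox5*), with the help of its membrane partner FLAP (*Alox5ap*), makes leukotriene A4, which becomes leukotriene B4 through leukotriene A4 hydrolase (*Lta4h*) or leukotriene C4 through leukotriene C4 synthase (*Ltc4s*). In the prostanoid route, cyclooxygenases make prostaglandin H2, from which terminal synthases make prostaglandins D2, E2, F2α and prostacyclin. Cysteinyl leukotrienes and prostaglandin D2 are known to activate ILC2s, while prostaglandin E2 and prostacyclin are known to restrain them.

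The libraries held 10696041 to 12054780 reads in genes after IL-33 and 15650731 to 16092284 after chronic HDM, and 45S ribosomal RNA took 3.45% to 4.95% of these after IL-33 and 17.4% to 25.4% after chronic HDM. The chronic HDM libraries were further apart from each other than the IL-33 libraries, with a correlation across genes of 0.975 between the IL-33 libraries and 0.825 between the chronic HDM libraries (genes are not independent replicates). All 9 genes that define ILC2s were at 2 RPKM or more in every library. *Il2ra*, which encodes CD25, was at 432 and 376 RPKM after IL-33 and at 27.6 and 22.0 RPKM after chronic HDM, the order of the CD25 labels. *Gata3* was at 14.9 and 18.9 RPKM after IL-33 and at 216 and 195 RPKM after chronic HDM. RPKM are reads per kilobase of exon, scaled to the size of the library, so levels can be set side by side between genes.

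Of the 10 eicosanoid genes, 8 were at 2 RPKM or more in every library, *Ltc4s* was found only after chronic HDM and *Ptgdr2* was near 0 throughout, and none passed the test for a difference. The 9 genes whose mean across the libraries reached 2 RPKM were tested with limma on log2(RPKM + 1), where the added 1 makes fold changes of low genes smaller. A gene was called if its Benjamini-Hochberg adjusted p, taken over all 9523 genes tested, was under 0.01 and its log2 fold change was over 1 in size. With limma, 0 of the 9 were called, where 3.34% of all genes tested were called. With limma-voom on reads recovered from the RPKM, 0 of the 9 were called, as were 0 of all genes. That fit had 2 of the 9 at an unadjusted p under 0.05, where 3052 of all genes were. With limma, 2 of the 9 (*Ltc4s* and *Ptger4*) had an unadjusted p under 0.05, where 3499 of all 9523 genes did. At an adjusted p under 0.05 and the same fold change, 1 of the 9, *Ltc4s*, was higher after chronic HDM, where 4.78% of all genes were. *Ltc4s* reached the minimum only through the chronic HDM libraries, so it had to differ and its test is no support for a difference. Both libraries of one treatment lay above both of the other for 4 of the 9 genes, a share below the 65.2% of all genes tested. All 4 were higher after chronic HDM (*Alox5ap*, *Ltc4s*, *Cysltr1* and *Ptger4*), the direction that 23.5% of all genes showed. A log2 fold change below 0, which means lower after IL-33 than after chronic HDM, was found for 8 of the 9, with a median of -0.49, or -0.45 without *Ltc4s*. Over all genes tested the median was 0.28 and 39.1% were below 0. In bulk RNA, fewer cells that express a gene and less RNA per cell cannot be told apart.

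**Figure D1:**
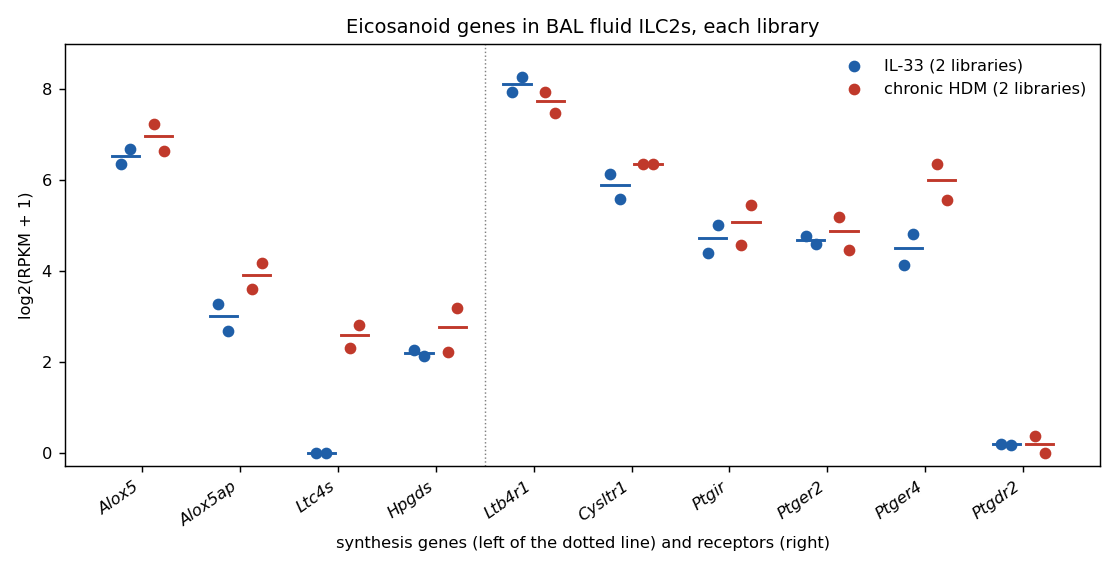
RPKM of the 10 eicosanoid genes in each library (points, log axis), with IL-33-stimulated ILC2s left of chronic HDM-stimulated ILC2s and bars at the means of the 2 libraries. *Ltb4r1* was highest after both treatments at 277 RPKM after IL-33 and 212 RPKM after chronic HDM, and *Ltc4s* had no reads after IL-33.

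The synthesis genes were led by *Alox5*. *Alox5* (chromosome 6, 116410071-116461178, minus strand, mm10 as all positions) encodes 5-lipoxygenase, which starts leukotriene synthesis, and was at 81.3 and 102 RPKM in IL-33-stimulated ILC2s and at 150 and 99.2 RPKM in chronic HDM-stimulated ILC2s. The lower chronic HDM library lay between the IL-33 libraries. Its means were 91.6 ± 14.7 RPKM after IL-33 and 125 ± 36.0 RPKM after chronic HDM (SD, n = 2 each), a log2 fold change of -0.42 with a 95% interval of -1.10 to 0.26 (adjusted p = 0.320, limma).

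*Alox5ap* (chromosome 5, 149265004-149288153, plus strand), which encodes the FLAP protein that presents arachidonic acid to 5-lipoxygenase, was much lower than its partner, at 8.64 and 5.41 RPKM after IL-33 and at 11.2 and 17.0 RPKM after chronic HDM. Both chronic HDM libraries lay above both IL-33 libraries. The means of 7.03 ± 2.29 RPKM after IL-33 and 14.1 ± 4.06 RPKM after chronic HDM (SD, n = 2 each) gave a log2 fold change of -0.91, and its interval of -1.95 to 0.13 included 0 (adjusted p = 0.177, limma). These values rested on 114 and 64 reads after IL-33 and on 217 and 314 reads after chronic HDM.

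*Ltc4s* (chromosome 11, 50236461-50238532, minus strand) encodes an enzyme that joins leukotriene A4 to glutathione, the committed step to cysteinyl leukotrienes. It had 0 reads in both IL-33 libraries, and 3.94 and 6.02 RPKM in the chronic HDM libraries, from 41 and 60 reads. A count of 0 allows up to 3 reads, which correspond to 0.423 and 0.471 RPKM in the IL-33 libraries, so the mean after chronic HDM, 4.98 ± 1.47 RPKM (SD, n = 2), was at least 11.1-fold higher than the mean of these floors. Floors cover counting error only, because PCR copies were not marked by molecular identifiers. Of the 930 annotated exon bases of *Ltc4s*, 268 overlap an antisense gene. The library kit kept no strand, so any reads there cannot be assigned to either gene with certainty. The fitted log2 fold change of -2.56 (standard error 0.55) depends on the pseudocount and is no bound. It passed an adjusted p of 0.05 but not 0.01 (adjusted p = 0.0309, limma), and with limma-voom the adjusted p was 0.130. It was called without chronic HDM replicate 1 (adjusted p = 0.00295, limma) or replicate 2 (adjusted p = 0.00453), fits in which its own spread came only from the IL-33 libraries at 0 and 0, so these calls add no support. Without an IL-33 library the adjusted p was 0.291 to 0.319.

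*Hpgds* (chromosome 6, 65117293-65144730, minus strand), which encodes the hematopoietic prostaglandin D2 synthase, was low, at 3.78 and 3.37 RPKM after IL-33 and at 3.64 and 8.03 RPKM after chronic HDM. Only 1 chronic HDM library was above the IL-33 libraries. The means were 3.57 ± 0.296 RPKM after IL-33 and 5.83 ± 3.11 RPKM after chronic HDM (SD, n = 2 each), with a log2 fold change of -0.50 and an interval of -1.77 to 0.77 (adjusted p = 0.518, limma). Summed over the 4 synthesis genes, the level was 93.7 and 111 RPKM after IL-33, against 169 and 130 RPKM after chronic HDM, and *Alox5* made up most of it in every library.

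Several of these genes are also used by other leukocytes, so the markers of those cells were read in the same libraries. The 10 macrophage markers summed to 1242 and 283 RPKM after IL-33 and to 3105 and 8511 RPKM after chronic HDM, and 5 of the 10 were higher in both chronic HDM libraries. Most of that sum came from *Chil3* and *Lyz2*, and the other 8 markers summed to 16.7 and 5.40 RPKM after IL-33 and to 28.3 and 89.5 RPKM after chronic HDM. The chronic HDM library with the higher macrophage sum was the one with the higher *Ltc4s*, *Alox5ap*, *Hpgds* and *Ptgir*, and the one with the lower *Alox5*, *Ltb4r1*, *Ptger2* and *Ptger4*. The part of macrophage RNA in these values was not tested.

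Of the 6 eosinophil markers, the defining *Epx*, *Il5ra* and *Ear6* were at 0 in every library, and the sum was 2.22 and 2.96 RPKM after IL-33, against 7.46 and 3.09 RPKM after chronic HDM. Of the 7 mast cell markers, *Tpsb2*, *Mcpt4* and *Ms4a2* were at 0 in every library, and the sum was 7.13 and 6.09 RPKM after IL-33, against 0 and 2.87 RPKM after chronic HDM. The 5 basophil markers summed to 49.97 and 42.2 RPKM after IL-33, and to 0 and 1.21 RPKM after chronic HDM, with *Ms4a2* and *Prss34* at 0 in every library. Nearly all of the basophil sum came from *Mcpt8*, at 45.8 and 39.2 RPKM after IL-33 and at 0 in both chronic HDM libraries. The 6 neutrophil markers summed to 0.42 and 0.566 RPKM after IL-33 and to 14.1 and 9.17 RPKM after chronic HDM. Most of the chronic HDM sum came from *S100a8*, at 14.1 and 6.46 RPKM, while *S100a9*, *Csf3r* and *Ly6g* were at 0 in every library. The 6 epithelial markers summed to 14.5 and 5.52 RPKM after IL-33 and to 25.7 and 76.0 RPKM after chronic HDM, with *Krt8* at 0 in every library. Of these, 2 (*Epcam* and *Cdh1*) were higher in both chronic HDM libraries and 1 (*Krt18*) in both IL-33 libraries. *Scgb1a1* was at 0 and 64.6 RPKM after chronic HDM. The 5 dendritic cell markers summed to 10.02 and 9.41 RPKM after IL-33, against 6.93 and 12.4 RPKM after chronic HDM. The 5 T cell markers summed to 79.9 and 104 RPKM after IL-33, against 71.6 and 83.5 RPKM after chronic HDM, mostly *Cd3g*, with *Cd4* and *Cd8a* at 0 in every library. The part of RNA from these cells in the eicosanoid values was not tested.

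Among the receptors, *Ltb4r1* stood far above the rest. *Ltb4r1* (chromosome 14, 55765962-55768492, plus strand) encodes BLT1, the high-affinity receptor for leukotriene B4 that guides leukocytes to inflamed tissue. It was at 244 and 310 RPKM in IL-33-stimulated ILC2s and at 247 and 177 RPKM in chronic HDM-stimulated ILC2s. The higher chronic HDM library lay between the IL-33 libraries. The means were 277 ± 46.6 RPKM after IL-33 and 212 ± 49.2 RPKM after chronic HDM (SD, n = 2 each), above those of 97.2% of the genes tested after IL-33 and 97.8% after chronic HDM. The log2 fold change was 0.39 with an interval of -0.19 to 0.98 (adjusted p = 0.278, limma), and it was -0.15 under quantile normalization, so no direction can be given. By the root mean square log2 difference over the 4 libraries, the genes most like *Ltb4r1* were *Tbc1d10c* (0.177), *Klrg1* (0.177) and *Arl6ip5* (0.179).

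*Cysltr1* (chromosome X, 106576509-106603679, minus strand) encodes the receptor with highest affinity for leukotriene D4 and was at 69.6 and 47.2 RPKM after IL-33 and at 80.5 and 80.9 RPKM after chronic HDM. Both chronic HDM libraries lay above both IL-33 libraries, and the chronic HDM libraries were nearly equal. The means were 58.4 ± 15.9 RPKM after IL-33 and 80.7 ± 0.339 RPKM after chronic HDM (SD, n = 2 each), with a log2 fold change of -0.49 and an interval of -1.14 to 0.17 (adjusted p = 0.236, limma).

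**Figure D2:**
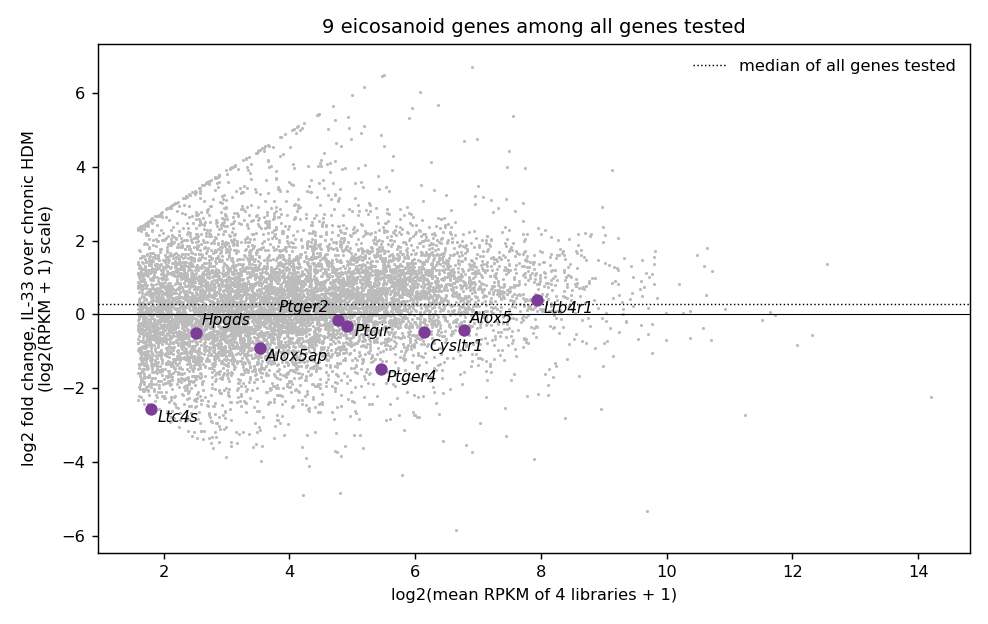
The mean RPKM of the 4 libraries as log2(mean + 1) (x axis) against the log2 fold change of IL-33 over chronic HDM (y axis) for the 9523 genes tested (grey) and the 9 eicosanoid genes among them (named points). Of the named genes, 8 lie below 0 and *Ltc4s* and *Ptger4* lie lowest, at -2.56 and -1.48.

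*Ptger4* showed the largest difference among the receptors. *Ptger4* (chromosome 15, 5233399-5244187, minus strand) encodes EP4, a receptor for prostaglandin E2 that raises cyclic AMP, and was at 16.6 and 27.2 RPKM in IL-33-stimulated ILC2s and at 80.8 and 46.4 RPKM in chronic HDM-stimulated ILC2s. The lower chronic HDM library was well above the higher IL-33 library. The means were 21.9 ± 7.47 RPKM after IL-33 and 63.6 ± 24.3 RPKM after chronic HDM (SD, n = 2 each), 2.91-fold higher after chronic HDM. The log2 fold change was -1.48 with a standard error of 0.39 and an interval of -2.46 to -0.51, and the adjusted p of 0.0519 from limma missed both thresholds. In 6 of the 11 other fits on all 4 libraries the adjusted p from limma was under 0.05, and over the 11 it lay between 0.0118 and 0.107. The lowest came from the fit with the replicate number as a block, although these numbers pair no samples. The next lowest adjusted p from limma was 0.0281, under quantile normalization. Without chronic HDM replicate 2 the log2 fold change was -1.88, and without chronic HDM replicate 1 it was -1.09. In these fits the gene's own spread came only from the IL-33 libraries, so they add no support.

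*Ptger2* (chromosome 14, 44988111-45003820, plus strand) encodes EP2, the other prostaglandin E2 receptor that raises cyclic AMP. It was at 26.2 and 23.0 RPKM after IL-33 and at 35.5 and 20.9 RPKM after chronic HDM. The chronic HDM libraries lay on either side of the IL-33 libraries. The means were 24.6 ± 2.26 RPKM after IL-33 and 28.2 ± 10.3 RPKM after chronic HDM (SD, n = 2 each), with a log2 fold change of -0.15 and an interval of -1.01 to 0.71 (adjusted p = 0.789, limma). Without chronic HDM replicate 1 the log2 fold change was 0.22.

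*Ptgir* (chromosome 7, 16906490-16910905, plus strand), which encodes the prostacyclin receptor IP, was at 20.0 and 31.3 RPKM after IL-33 and at 22.7 and 42.9 RPKM after chronic HDM. The ranges overlapped. The means were 25.6 ± 8.03 RPKM after IL-33 and 32.8 ± 14.2 RPKM after chronic HDM (SD, n = 2 each), with a log2 fold change of -0.31 and an interval of -1.34 to 0.72 (adjusted p = 0.626, limma). It was 0.13 without chronic HDM replicate 2 and 0.00305 without IL-33 replicate 1.

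*Ptgdr2* (chromosome 19, 10937160-10942511, plus strand) encodes CRTH2, the prostaglandin D2 receptor by which ILC2s are often sorted in human blood. It was near 0, at 0.145 and 0.129 RPKM after IL-33 and at 0.296 and 0 RPKM after chronic HDM, from 5 and 4 reads after IL-33 and 15 and 0 reads after chronic HDM. The 0 allows up to 0.0618 RPKM. The gene was below the minimum and was not tested, and no difference was detectable at this depth. Of its 2644 annotated exon bases, 1031 overlap *Ccdc86* on the opposite strand, and the library kit kept no strand, so these few reads cannot be assigned to either gene with certainty. Smaller overlaps with antisense genes touch the exons of *Ltc4s* (268 of 930 bases) and *Alox5ap* (189 of 1183), and opposite-strand transcripts cover 246 and 144 of the 5193 exon bases of *Ptger2*. Any reads in these overlaps cannot be assigned with certainty either.

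The order of levels was largely shared by the treatments. After IL-33 the means ran from *Ltb4r1* over *Alox5* and *Cysltr1* to *Ptgir*, *Ptger2* and *Ptger4*, whose ranges overlapped with their neighbours, and then to *Alox5ap*, *Hpgds*, *Ptgdr2* and *Ltc4s*. After chronic HDM *Ptger4* stood beside *Cysltr1*, with overlapping ranges, and above *Ptgir* and *Ptger2*, and *Ltc4s* overlapped with *Hpgds*. The 6 receptors summed to 377 and 439 RPKM after IL-33 and to 467 and 368 RPKM after chronic HDM, so the sums overlapped. *Ltb4r1* made up 64.8% and 70.7% of the receptor sum after IL-33, against 52.9% and 48.1% after chronic HDM. On the log2(RPKM + 1) scale, the libraries of a pair differed by a median of 0.34 after IL-33 and 0.59 after chronic HDM over the 9 genes, near the 0.23 after IL-33 and 0.57 after chronic HDM over all genes tested.

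The promoters of *Ltc4s* and *Ptger4* are shown because these genes had the largest differences. They come from RefSeq (GRCm38.p6, the assembly of mm10), cover the 250 bases before the annotated start, and are printed 5′ to 3′ on the gene's strand with CG dinucleotides in capitals. The *Ltc4s* window lies at chr11:50238533-50238782 and the *Ptger4* window at chr15:5244188-5244437, both on the minus strand.
Ltc4s: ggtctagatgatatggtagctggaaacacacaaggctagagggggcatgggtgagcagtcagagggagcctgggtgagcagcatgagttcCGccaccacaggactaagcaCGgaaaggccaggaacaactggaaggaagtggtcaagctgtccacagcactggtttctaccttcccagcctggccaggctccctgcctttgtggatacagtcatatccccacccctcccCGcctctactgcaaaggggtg
Ptger4: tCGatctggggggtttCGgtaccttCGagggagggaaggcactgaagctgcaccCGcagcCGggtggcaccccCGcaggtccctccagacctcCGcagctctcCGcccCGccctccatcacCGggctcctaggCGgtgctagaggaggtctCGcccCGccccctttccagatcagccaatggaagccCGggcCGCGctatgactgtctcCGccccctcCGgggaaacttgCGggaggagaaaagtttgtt
The *Ltc4s* window held 3 CG dinucleotides and 57.6% G and C, and 29.1% of the 32817 mouse promoters of this length held fewer CG. The *Ptger4* window held 19 CG dinucleotides and 66.8% G and C, and 80.3% of promoters held fewer. Over all promoters the median was 6 CG dinucleotides and 52.4% G and C. Of the 10 genes, 8 had a promoter entry (*Alox5ap* and *Cysltr1* had none). On both strands, these 8 windows were searched for a TATA box (TATAAA, in 12.4% of promoters), the GATA motif (AGATAA, counted together with TGATAA, in 16.6%), AP-1 (TGAGTCA, in 4.46%), CRE (TGACGTCA, in 1.55%) and the E-box (CACGTG, in 6.02%). The only match was 1 GATA sequence in the *Ptger2* window.

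Other genes of the same pathways were read from a list of 45, of which 13 had no reads in any library and 21 passed the minimum. Of the 21, 0 were called in either direction with limma or with limma-voom. Of all genes tested, 3.34% were called with limma and 0 with limma-voom. At an unadjusted p under 0.05 from limma there were 7 of the 21, where 3499 of all 9523 genes were. At an adjusted p under 0.05 and the same fold change, 1 was higher after IL-33 (*Pparg*), where 13.8% of all genes were, and 1 after chronic HDM (*Ptges3*), where 4.78% were. The libraries did not overlap for 12 of the 21, a share below the 65.2% of all genes tested. Of the 21, 7 were higher after IL-33 in this way and 5 after chronic HDM, beside 41.7% and 23.5% of all genes, and the median log2 fold change was -0.19.

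Upstream, *Pla2g4a*, the cytosolic phospholipase A2 that releases arachidonic acid, was at 0 and 0.511 RPKM after IL-33 and at 6.11 and 2.55 RPKM after chronic HDM (log2 fold change of -2.03 with a standard error of 0.63, adjusted p = 0.0772, limma). *Pla2g6*, a calcium-independent phospholipase A2, had overlapping values of 3.89 and 6.43 RPKM after IL-33, against 9.91 and 5.64 RPKM after chronic HDM. *Lta4h*, which makes leukotriene B4, was at 142 and 149 RPKM after IL-33 and at 105 and 66.3 RPKM after chronic HDM (log2 fold change of 0.80 with a standard error of 0.27, adjusted p = 0.0921, limma). Both IL-33 libraries thus lay above both chronic HDM libraries for this enzyme. *Ggt5*, which converts leukotriene C4 to leukotriene D4, was at 0.019 and 1.45 RPKM after IL-33 and at 3.23 and 8.91 RPKM after chronic HDM (adjusted p = 0.104, limma). *Mgst2* and *Mgst3*, also listed for leukotriene synthesis or processing, had reads in every library and overlapping values. *Mgst2* was at 4.36 and 5.15 RPKM after IL-33, against 12.3 and 5.12 RPKM after chronic HDM. *Mgst3* was at 6.94 and 10.9 RPKM after IL-33, against 28.3 and 9.62 RPKM after chronic HDM. Both are exceptions to the rule for naming, picked with their levels already known. *Pla2g4a* and *Ggt5* reached the minimum only through the chronic HDM libraries, so their tests are no support for a difference.

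In the prostanoid route, *Cbr1*, which encodes a carbonyl reductase that acts on prostaglandins, had overlapping values of 37.0 and 33.8 RPKM after IL-33, against 50.1 and 32.6 RPKM after chronic HDM. *Ptges3*, a cytosolic prostaglandin E synthase also known as the HSP90 co-chaperone p23, was at 25.3 and 22.4 RPKM after IL-33 and at 43.9 and 56.4 RPKM after chronic HDM (log2 fold change of -1.03 with a standard error of 0.27, adjusted p = 0.0485, limma). *Fam213b*, which encodes a prostaglandin F synthase, was at 3.05 and 2.20 RPKM after IL-33 and at 15.4 and 3.22 RPKM after chronic HDM. The cyclooxygenase genes, named after their values had been seen, were below the minimum. *Ptgs1* was at 0 and 0.686 RPKM after IL-33 and at 0 and 3.87 RPKM after chronic HDM. *Ptgs2* had no reads after IL-33, against 2.08 and 0 RPKM after chronic HDM. Neither cyclooxygenase gene was thus found in both libraries of either treatment.

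Among the other receptors, *Pparg*, a nuclear receptor for fatty acids and their derivatives, was at 142 and 119 RPKM after IL-33 and at 57.8 and 40.8 RPKM after chronic HDM (log2 fold change of 1.40 with a standard error of 0.26, adjusted p = 0.0207, limma). *Ptger1*, which encodes the prostaglandin E2 receptor EP1, was at 4.08 and 9.06 RPKM after IL-33 and at 19.3 and 20.0 RPKM after chronic HDM (log2 fold change of -1.53 with a standard error of 0.44, adjusted p = 0.0641, limma). *Ptger1* and *Ptger4* were thus both higher in each chronic HDM library, with neither called. This order was not shared by all prostaglandin E2 receptor genes, since *Ptger2* overlapped. *Ptger3*, below the minimum, was at 0.228 and 1.82 RPKM after IL-33 and had 0 reads after chronic HDM. It was named after its values had been seen. Of the genes for transport and breakdown, *Abcc4*, an exporter of prostaglandins, was at 4.34 and 8.33 RPKM after IL-33 and at 1.51 and 2.17 RPKM after chronic HDM (adjusted p = 0.127, limma). *Ptgr1*, a prostaglandin reductase that also inactivates leukotriene B4, was at 4.05 and 6.31 RPKM after IL-33 and at 0 and 3.04 RPKM after chronic HDM (adjusted p = 0.203, limma). *Abcc4* and *Ptgr1* reached the minimum only through the IL-33 libraries, so their tests are no support either. *Hpgd*, which encodes the prostaglandin-degrading 15-hydroxyprostaglandin dehydrogenase and was named after its values had been seen, was at 1.79 and 2.24 RPKM after IL-33 and had 0 reads in the chronic HDM libraries, below the minimum. *Abcc1*, an exporter of leukotriene C4, had overlapping values, at 10.2 and 13.6 RPKM after IL-33 and at 9.17 and 15.9 RPKM after chronic HDM.

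**Figure D3:**
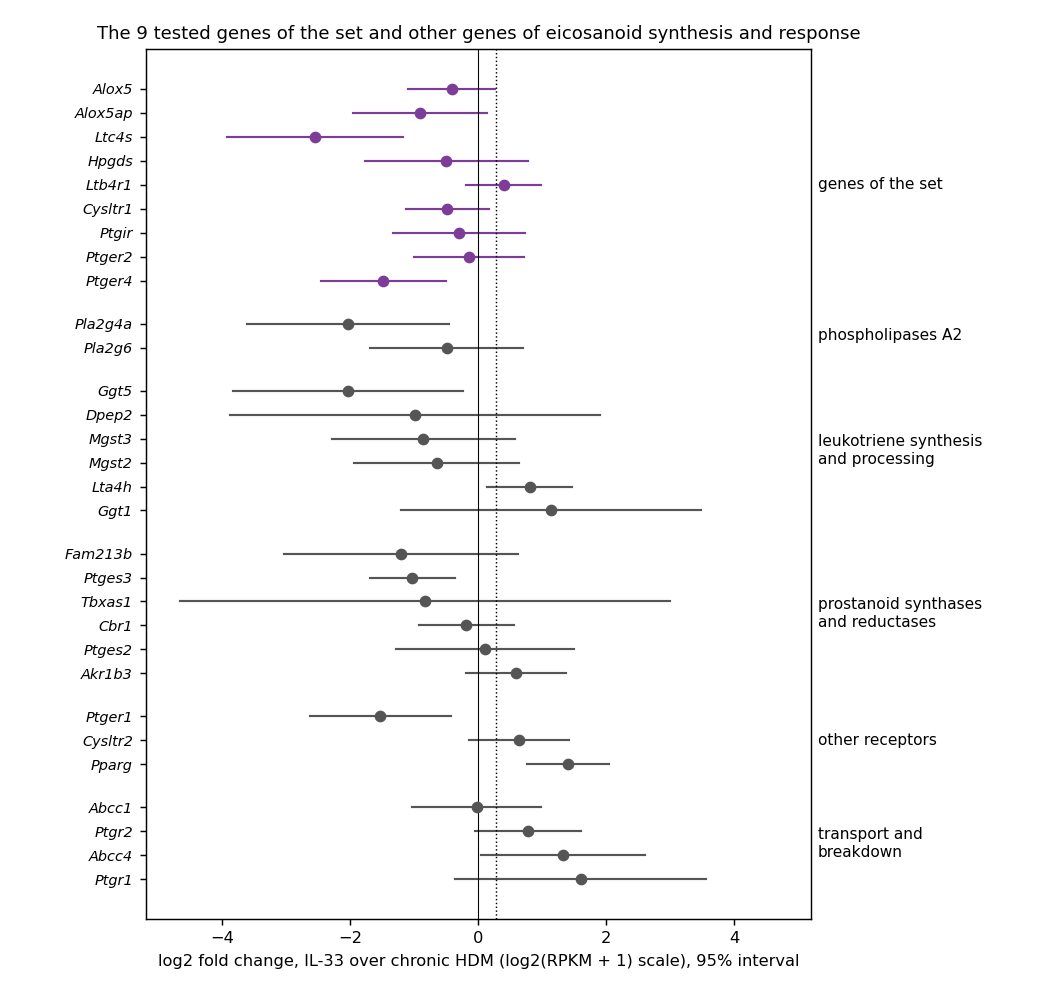
Log2 fold change of IL-33 over chronic HDM with 95% intervals for the 9 eicosanoid genes tested (purple) and the 21 other pathway genes tested (grey), with a dotted line where the median gene of the whole test lies, 0.28. Of the purple intervals, those of *Ltc4s* (-3.93 to -1.18) and *Ptger4* (-2.46 to -0.51) lie below 0. Of the grey intervals, those of *Pla2g4a*, *Ggt5*, *Ptges3* and *Ptger1* lie below 0, and those of *Pparg*, *Lta4h* and *Abcc4* lie above it. *Ltc4s*, *Pla2g4a* and *Ggt5* reached the minimum only through the chronic HDM libraries and *Abcc4* only through the IL-33 libraries. The intervals of these genes are therefore no support for a difference.

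Ratios within a library do not depend on how libraries are scaled. In all, 7 ratios were computed, chosen after the values had been seen, and are given as a description, since 2 libraries against 2 allow no two-sided exact permutation p under 0.33. *Cysltr1* over *Cysltr2*, the genes of both cysteinyl leukotriene receptors, was 0.862 and 0.775 after IL-33, against 1.43 and 2.28 after chronic HDM, so *Cysltr2* was the higher of the pair after IL-33 and *Cysltr1* after chronic HDM. *Ptger4* over *Ptger2* was 0.634 and 1.18 after IL-33, against 2.27 and 2.22 after chronic HDM. *Alox5* over *Lta4h* was 0.571 and 0.685 after IL-33, against 1.44 and 1.496 after chronic HDM, close within each treatment and apart between them. *Ltb4r1* over *Cysltr1* was 3.51 and 6.58 after IL-33, against 3.07 and 2.19 after chronic HDM. *Ltb4r1* over *Ptger4* was 14.7 and 11.4 after IL-33, against 3.05 and 3.82 after chronic HDM. *Alox5* over *Alox5ap* overlapped between treatments, at 9.40 and 18.9 after IL-33, against 13.4 and 5.85 after chronic HDM, and so did *Ptgir* over *Ptger2*.

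**Figure D4:**
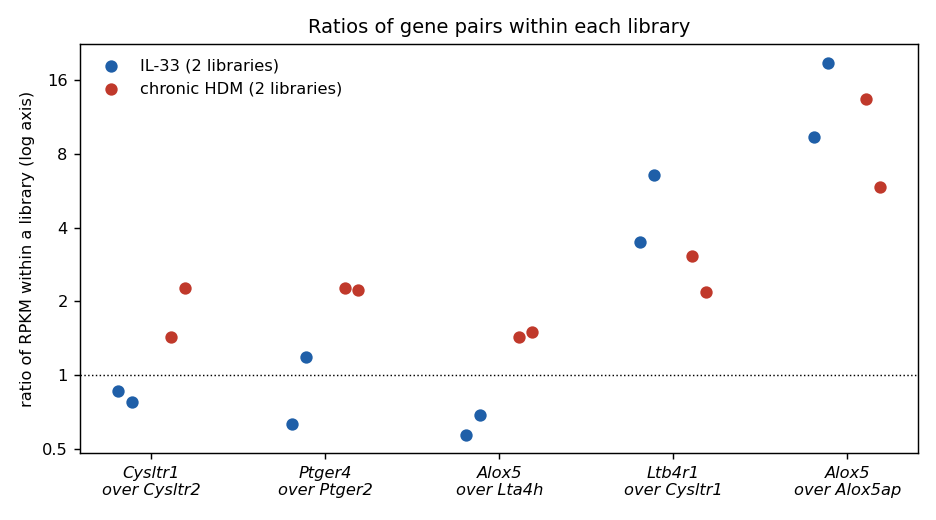
Ratios of RPKM between gene pairs in each library (log axis, dotted line at 1), with IL-33-stimulated ILC2s left of chronic HDM-stimulated ILC2s. *Cysltr1* over *Cysltr2* lies below 1 in both IL-33 libraries (0.862 and 0.775) and above 1 in both chronic HDM libraries (1.43 and 2.28), and *Alox5* over *Alox5ap* overlaps.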

How the data were processed

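Mouse ILC2s were FACS-sorted from BAL fluid and Smart-seq2 libraries were sequenced as single 51-base reads. The authors aligned reads to mm10 with HISAT2 (2.0.4, from the submitters' notes on processing) and deposited RPKM per gene from HOMER, counted over the exons of a single RefSeq transcript per gene. RPKM multiplied by exon length gave whole reads (within 0.1), from which depth and read counts were recovered. Differences were taken as IL-33 over chronic HDM on log2(RPKM + 1) for the 9523 genes that averaged 2 RPKM or more, using limma 3.58.1 under R 4.3.3 (moderated variances with a trend on intensity, all 4 libraries, no covariate, two-sided, Benjamini-Hochberg adjustment over all genes tested) after checks on simulated data. The thresholds follow the study's methods, in which the authors ran DESeq2 on counts. The floor for a count of 0 was 3 reads per library. The eicosanoid genes and the lists of pathway and marker genes were chosen with earlier results of these data known. From the pathway list, genes were named if called, if tested with separate libraries and a log2 fold change over 1 in size, or if highest in mean among the tested genes of their group; exceptions are marked. Exon overlaps were read from the GENCODE M21 annotation. The alternatives were other pseudocounts (0.1 and 2), other minimums, other scalings, limma's options, limma-voom, the replicate block, a threshold of 0.05 and leaving out each library. Scaling without 45S reads was added after seeing the data.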

Additional observations from a re-analysis of the deposited data

How the results depend on the processing

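In the 11 fits on all 4 libraries other than the reported one, 0 of the eicosanoid genes were called. In these fits the log2 fold changes lay between -6.16 and -1.79 for *Ltc4s* (10 fits, since a minimum of 5 RPKM left it out, as it did *Hpgds*) and between -1.87 and -1.44 for *Ptger4*. The direction held in the fits that tested it for every eicosanoid gene other than *Ltb4r1* (-0.15 under quantile normalization). Counts of all genes called were 267 after IL-33 and 51 after chronic HDM as reported. They were 0 and 0 with limma-voom, with a pseudocount of 0.1, without the intensity trend and without a minimum, 502 and 107 with a minimum of 5 RPKM, 85 and 40 with median-of-ratios scaling, 48 and 40 with quantile normalization, 53 and 29 with scaling without 45S reads and 1311 and 455 at an adjusted p under 0.05, where 1 eicosanoid gene and 1 pathway gene were higher after chronic HDM and 1 pathway gene after IL-33. The share of calls that were higher after IL-33 was 84.0% as reported, 68.0% with median-of-ratios scaling, 54.5% with quantile normalization and 64.6% without 45S reads, and these scalings moved the median of all genes (log2 fold change) by -0.21, -0.25 and -0.26. With the replicate number as a block 987 and 267 genes were called and 1 pathway gene was higher after IL-33, but same-numbered libraries did not deviate together (correlation of deviations -0.038), so the numbers pair no samples.

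With each library left out in turn (the lone library is then assumed to vary like the other group), counts of all genes called ran from 0 to 1872 after IL-33 and from 0 to 598 after chronic HDM, the highest without chronic HDM replicate 2. Eicosanoid genes called after chronic HDM ran from 0 to 2, and other pathway genes from 0 to 3 after IL-33 and from 0 to 2 after chronic HDM. Without chronic HDM replicate 1 or 2 the log2 fold change of *Ltc4s* was -2.81 or -2.30, and without replicate 2 that of *Ptger4* was -1.88. In these fits the spread within a treatment came only from the IL-33 libraries, so calls made in them add no support. *Ltc4s* also reached the minimum only through the chronic HDM libraries. Over all fits with a library left out, log2 fold changes ran from -0.52 to 0.22 for *Ptger2* and from -0.75 to 0.13 for *Ptgir*. Changes of sign were those of *Ptger2* (0.22 without chronic HDM replicate 1) and *Ptgir* (0.13 without chronic HDM replicate 2 and 0.00305 without IL-33 replicate 1). The cause of these shifts was not tested. With 2 libraries per treatment, small differences are beyond reach.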
